A study of Mus musculus with 6 samples.

Results

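The interferon-stimulated genes described here are 38 listed genes, from the antiviral effectors Isg15, Ifit1 and Bst2 to the chemokine Cxcl10 and the transcription factor Irf7. A probe was taken as a member's when the array's own annotation gave it that gene name (the sensor Rigi is written Ddx58 there). All 38 genes were found, on 58 probes, and 37 of them were among the 17785 genes tested. Cxcl11, a chemokine, was not well above background on any array.

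Interferons are secreted when cells sense nucleic acids of viruses or of damaged cells. Type I interferon acts through its receptor on the kinases Jak1 and Tyk2 and on a complex that holds Stat2 and Irf9, which binds the interferon-stimulated response element in the promoters of its target genes. The products of these genes block viral translation and replication, sense more nucleic acid, attract T cells and raise antigen presentation, and in skin they are known from viral infection, lupus and early psoriatic lesions. Imiquimod is a small-molecule agonist of the endosomal RNA receptor Tlr7, and cream containing it is used to produce a psoriasis-like inflammation in mice.

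The study compared the back skin of female C57BL/6J mice, 6 to 8 weeks old, that had received 62.5 mg of cream on shaved skin every day for 7 days. The cream held 5% imiquimod in 3 samples and was the vehicle alone in 3. No mutant allele was named for either group, and both groups were shaved and received cream, so the vehicle samples are not untouched skin. Whole-skin RNA was hybridised to single-colour arrays, 1 array per sample. The labels do not say that each sample was a separate mouse, so that a p-value here reflects only how far these samples vary, possibly for technical reasons. Precision is limited by having 3 arrays per group.

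In 6 of 6 cases the name of a scanner file gave the other treatment than the title of its deposited sample. The values of each file matched the deposited value table's column of the sample with the treatment and number in the file name (Spearman correlation at least 0.9999997 over 24256 probes) and less well its own deposited sample's column (0.943 to 0.952). Arrays were therefore grouped by the treatment in the file name, which is also the grouping of the value table read by sample title. Grouping the scanner files as filed would turn the sign of each difference between treatments below. All differences are imiquimod minus vehicle, on a log2 scale, of signals relative to the 75th percentile of their array (called scaled log2 signal).

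Vehicle arrays 1, 2 and 3 and imiquimod array 1 shared a slide, and imiquimod arrays 2 and 3 were on the other. Between 61.6% and 67.8% of spots were well above background on each array. The 3 imiquimod arrays correlated with each other at 0.992, and the vehicle arrays at 0.960 to 0.983, the lowest value being that of vehicle 2 with vehicle 3. Over all genes, 4190 passed at an adjusted p below 0.05 in limma, 2285 higher and 1905 lower with imiquimod (3171 and 1564 when arrays were scaled to their medians). All 10 keratinocyte markers were tested, and Krt10 and Krt5, keratins of the upper and basal epidermis, had scaled log2 signals of 8.14 to 9.01 and 7.72 to 8.77.

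No interferon-stimulated gene passed the test between imiquimod and vehicle skin, and the pattern that did stand out lay inside the vehicle group. Of 37 tested members, 0 were called higher and 0 lower in limma, against 23.6% of all tested genes called in either direction (12.8% higher, 10.7% lower). At an unadjusted p below 0.05 there was 1 member, Cxcl10, against 39.0% of all genes. Vehicle array 3 held the highest of the 6 values in 32 of 37 members, whereas it was the highest array in 25.3% of all genes. Its signal exceeded the mean of vehicle 1 and 2 by a median of 1.35 over the members, a 2.54-fold difference, against 0.06 over all genes. It exceeded the mean of the imiquimod arrays by a smaller median, 0.82, against 0.004 over all genes. In whole tissue, fewer cells of a type and less RNA per cell cannot be told apart.

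**Figure D1:**
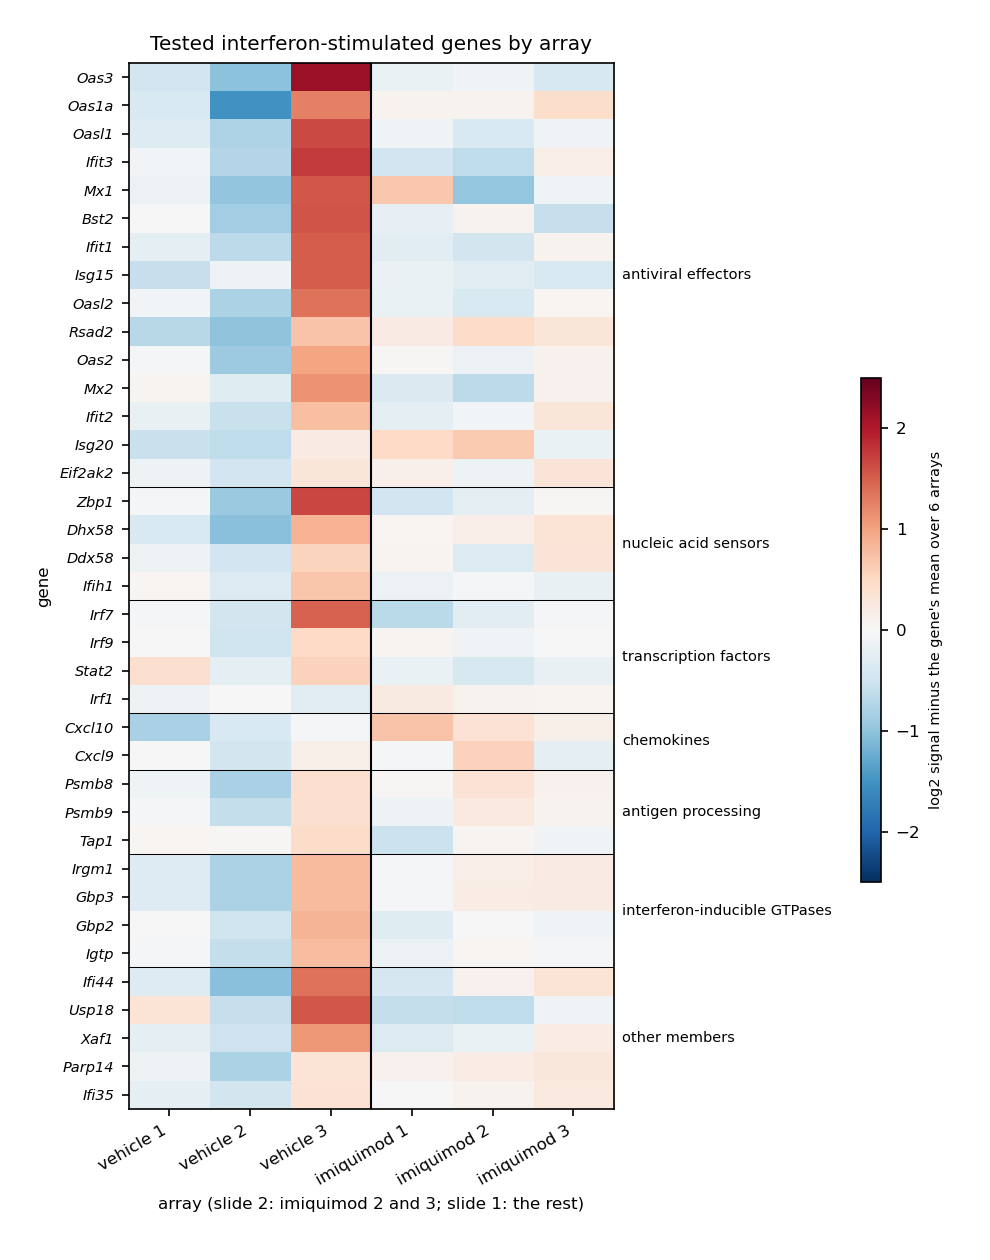
Scaled log2 signal of each of the 37 tested interferon-stimulated genes (vertical axis, grouped by role) on each of the 6 arrays (horizontal axis), shown as the difference from the gene's mean over the arrays. The column of vehicle 3 is the highest in 32 of 37 genes and that of vehicle 2 the lowest in 29.

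Many members share short promoter motifs, which played no part in choosing them. RefSeq promoter windows of the mouse build GRCm38.p6, from 250 bases before to 50 bases after a transcript start, were at hand for 30 of the 38 members, in 36 windows. Searched on both strands, the core of the interferon-stimulated response element (GAAA, any 2 bases, GAAA), the site of the complex with Stat2 and Irf9 and of other interferon regulatory factors, occurred in 16 of 36 member windows (44.4%) and in 3.44% of all 32851 windows. TTCNNNGAA, the palindrome bound by Stat dimers that interferon gamma activates, occurred in 9 of 36 (25.0%) and in 8.3% of all windows. Matches were counted whether or not they shared bases, and a match is only a match of letters. The windows of Psmb9 (chr17:34187281-34187580) and Tap1 (chr17:34187306-34187605) overlap on opposite strands, so these genes share 1 promoter region.

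The 250 bases before the start are shown for 4 members whose signals contrast. Isg15 and Ifit1 are effectors in which vehicle 3 stood far above the other arrays, and Cxcl10 and Irf1 are the 2 members whose imiquimod arrays all exceeded all vehicle arrays. Capitals mark the response element core on either strand (in Ifit1 it lies on the other strand and reads as repeats of TTTC) and, in Irf1, TTCNNNGAA.
Isg15: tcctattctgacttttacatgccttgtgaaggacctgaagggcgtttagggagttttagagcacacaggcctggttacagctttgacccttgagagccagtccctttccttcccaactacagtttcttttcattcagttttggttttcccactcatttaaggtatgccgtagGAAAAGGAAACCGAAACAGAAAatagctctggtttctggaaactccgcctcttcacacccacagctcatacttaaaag
Ifit1: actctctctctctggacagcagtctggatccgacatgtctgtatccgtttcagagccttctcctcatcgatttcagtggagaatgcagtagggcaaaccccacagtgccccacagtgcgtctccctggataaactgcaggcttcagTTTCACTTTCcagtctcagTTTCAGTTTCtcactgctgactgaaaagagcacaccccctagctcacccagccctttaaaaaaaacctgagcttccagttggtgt
Cxcl10: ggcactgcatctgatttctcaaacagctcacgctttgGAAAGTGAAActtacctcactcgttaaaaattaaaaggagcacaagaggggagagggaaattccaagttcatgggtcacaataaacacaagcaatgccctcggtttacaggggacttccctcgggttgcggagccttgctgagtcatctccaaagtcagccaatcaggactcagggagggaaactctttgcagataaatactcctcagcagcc
Irf1: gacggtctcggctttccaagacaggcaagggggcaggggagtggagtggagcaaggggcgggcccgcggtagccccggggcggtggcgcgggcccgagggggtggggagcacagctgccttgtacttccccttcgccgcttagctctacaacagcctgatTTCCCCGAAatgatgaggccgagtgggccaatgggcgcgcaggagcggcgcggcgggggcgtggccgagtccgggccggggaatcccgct
They lie at chr4:156200819-156201068 (minus strand), chr19:34640639-34640888 (plus strand), chr5:92348890-92349139 (minus strand) and chr11:53769764-53770013 (plus strand). Isg15 held 3 overlapping copies of the response element core that began 78, 72 and 66 bases before the start, and Ifit1 held 2 that began 104 and 85 bases before it. Cxcl10 held 1 copy, 213 bases before the start. Irf1 held no response element core in this window and 1 TTCNNNGAA, 90 bases before the start. The 16 members with the response element core led in vehicle 3 by a median of 1.35 (0.49 to 2.92) over vehicle 1 and 2, and the 14 members without it in their windows by 0.84 (-0.20 to 2.18). For TTCNNNGAA the medians were 0.87 with it (9 members) and 1.36 without (21 members). These are descriptions of overlapping ranges and were not tested.

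The 15 antiviral effectors had the widest lead of vehicle 3, with a median of 1.86, and vehicle 3 was the highest array in 13 of them. Isg15, a ubiquitin-like protein that is attached to viral and host proteins, had scaled log2 signals of -0.67, -0.22 and 1.42 in vehicle 1, 2 and 3 and of -0.27, -0.35 and -0.48 in imiquimod 1, 2 and 3. The imiquimod arrays thus lay within the range of vehicle 1 and 2, and vehicle 3 stood 1.64 above the next array. The difference between treatments was -0.54 (SE 0.53, limma adjusted p = 0.489).

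The Ifit genes encode proteins that bind viral RNA and block its translation. Ifit1 measured -2.23, -2.66 and -0.50 in the vehicle arrays and -2.28, -2.47 and -1.92 in the imiquimod arrays. Ifit3 measured 0.23, -0.43 and 2.04 in the vehicle arrays and -0.17, -0.33 and 0.47 in the imiquimod arrays. In both genes 5 arrays lay close together and vehicle 3 was high. Ifit2, their neighbour on chromosome 19, was also highest in vehicle 3 and lowest in vehicle 2, with a smaller lead of 1.12 over vehicle 1 and 2. None of the 3 passed, with differences of -0.43 for Ifit1, 0.01 for Ifit2 and -0.63 for Ifit3 (limma adjusted p = 0.614, 0.989 and 0.513).

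The Oas proteins make the 2-5A messenger that activates RNase L, and the Oasl proteins are relatives of them. Oas1a measured -0.92, -2.05 and 0.73 in the vehicle arrays and -0.45, -0.44 and -0.09 in the imiquimod arrays. Here the vehicle arrays spanned both sides of a tight imiquimod group, with SDs of 1.40 and 0.21 (n = 3 each). Oas3 measured -5.06, -5.61 and -2.41 in the vehicle arrays and -4.75, -4.67 and -4.98 in the imiquimod arrays, and it was well above background on 2 of 3 arrays in each group. Its lead of 2.92 in vehicle 3 was the largest of all members and its signal was dim. The leads of Oas2, Oasl1 and Oasl2 were 1.47, 2.18 and 1.80. These genes form a family on chromosome 5, like the Ifit genes on chromosome 19, and their probes were not checked for binding to relatives.

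Bst2, also called tetherin, holds budding virions at the cell surface. It measured 2.16, 1.29 and 3.74 in the vehicle arrays and 1.97, 2.26 and 1.59 in the imiquimod arrays, so vehicle 3 again stood alone at the top. Mx1 and Mx2, which belong to the dynamin-like GTPases, had leads of 2.12 and 1.24. Mx1 was well above background on 2 of 3 arrays in each group, and its imiquimod arrays were the most scattered of all members (SD 0.82, n = 3).

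In a few effectors vehicle 3 stood only little above the highest imiquimod array, or below it. Rsad2, or viperin, which makes a chain-terminating nucleotide, measured -2.20, -2.51 and -0.79 in the vehicle arrays and -1.30, -1.06 and -1.20 in the imiquimod arrays. The imiquimod arrays of Rsad2 lay between vehicle 3 and the other vehicle arrays, as in Oas1a and Oas3. Vehicle 3 was its highest array, by 0.27. Isg20, an exonuclease of single-stranded RNA, measured -1.60, -1.66 and -0.82 in the vehicle arrays and -0.54, -0.39 and -1.19 in the imiquimod arrays. Its highest array was imiquimod 2, and the groups overlapped through imiquimod 3 and vehicle 3. Eif2ak2, the RNA-activated kinase that stops translation, was highest in imiquimod 3 by only 0.02 over vehicle 3. Their differences were 0.65 (SE 0.45) for Rsad2, 0.65 (SE 0.31) for Isg20 and 0.21 (SE 0.23) for Eif2ak2 (limma adjusted p = 0.330, 0.178 and 0.538).

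**Figure D2:**
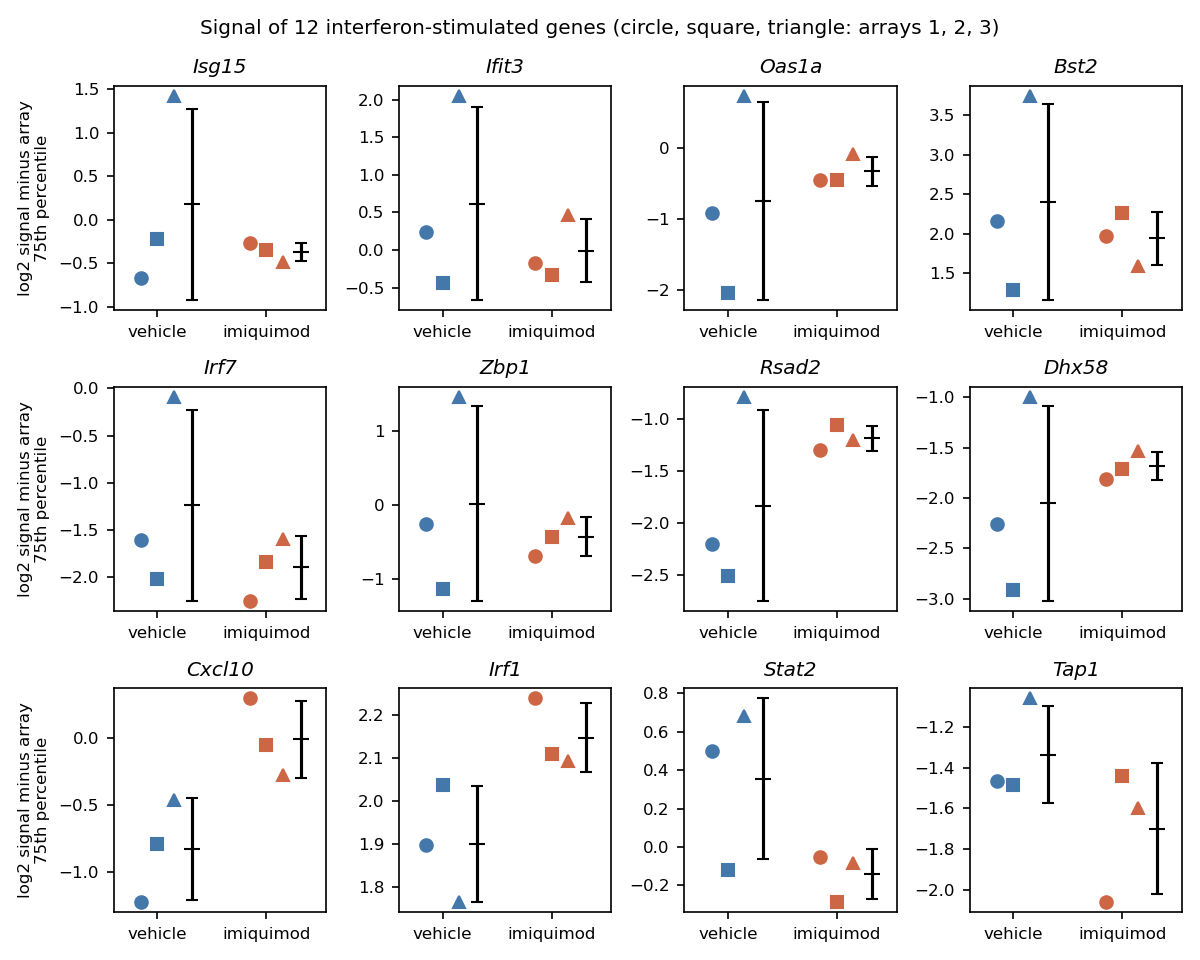
Scaled log2 signal (vertical axis, each gene on its own scale) of 12 interferon-stimulated genes in the vehicle (blue) and imiquimod (orange) arrays; circles, squares and triangles are arrays 1, 2 and 3 of a group, and the bar gives the mean ± SD (n = 3). The blue triangle, vehicle 3, is the highest point for Isg15, Ifit3, Oas1a, Bst2, Irf7, Zbp1, Rsad2, Dhx58, Stat2 and Tap1, while in Cxcl10 and Irf1 all imiquimod points lie above all vehicle points.

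The 4 sensors of nucleic acid were all highest in vehicle 3, with a median lead of 1.22. Zbp1, the Z-form nucleic acid sensor that can start necroptosis, measured -0.26, -1.13 and 1.46 in the vehicle arrays and -0.69, -0.43 and -0.17 in the imiquimod arrays. Dhx58, or LGP2, a regulator of the cytosolic RNA sensors, measured -2.25, -2.91 and -1.0 in the vehicle arrays and -1.81, -1.71 and -1.54 in the imiquimod arrays. Zbp1 had its imiquimod arrays between vehicle 2 and vehicle 3, whereas Dhx58 had them all above vehicle 1 and 2 and below vehicle 3. Ddx58 (RIG-I) and Ifih1 (MDA5), the sensors of short and long double-stranded RNA, had leads of 0.86 and 0.84. Ddx58 was read by 4 tested probes, whose leads ran from 0.68 to 0.86. The treatment differences of these sensors ran from -0.45 for Zbp1 to 0.37 for Dhx58 (limma adjusted p = 0.645 and 0.603).

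Of the transcription factors, Irf7 followed the effectors and Irf1 did not. Irf7, which amplifies type I interferon production, measured -1.61, -2.02 and -0.09 in the vehicle arrays and -2.25, -1.84 and -1.59 in the imiquimod arrays. Vehicle 3 exceeded the next array by 1.502, and the treatment difference was -0.66 (SE 0.51, limma adjusted p = 0.386). Irf1, a factor induced mainly by interferon gamma, measured 1.90, 2.04 and 1.77 in the vehicle arrays and 2.24, 2.11 and 2.09 in the imiquimod arrays. It was the only tested member whose lowest array was vehicle 3, and each imiquimod array exceeded each vehicle array. The difference of 0.25 (SE 0.12) did not pass (limma adjusted p = 0.175), and its second probe, also higher with imiquimod, gave 0.43.

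Stat2 and Irf9 are parts of the complex that binds the response element. Stat2 measured 0.50, -0.12 and 0.68 in the vehicle arrays and -0.05, -0.29 and -0.09 in the imiquimod arrays. Vehicle 1 and 3 were high, and vehicle 2 overlapped the imiquimod arrays. The difference was -0.50 (SE 0.23, limma adjusted p = 0.163). Irf9 had a lead of 0.75 in vehicle 3 and a treatment difference of -0.0015 (SE 0.26, limma adjusted p = 0.997).

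The chemokines of the list bind the receptor Cxcr3 on T cells, and 2 of them were tested. Cxcl10 measured -1.23, -0.79 and -0.46 in the vehicle arrays and 0.30, -0.05 and -0.28 in the imiquimod arrays. Every imiquimod array exceeded every vehicle array, and vehicle 3 was again the highest of its group. The difference of 0.82 (SE 0.24) was the highest of all members and missed the threshold (limma adjusted p = 0.0593). It passed with normexp background correction (0.71, limma adjusted p = 0.0463) and with median scaling (0.92, limma adjusted p = 0.0390), within a range of 0.0347 to 0.169 over its alternatives. Cxcl9, induced mostly by interferon gamma, measured -2.15, -2.60 and -2.01 in the vehicle arrays and -2.18, -1.58 and -2.38 in the imiquimod arrays, which overlapped (difference 0.20, SE 0.26, limma adjusted p = 0.605).

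Members that process antigen had a median lead of 0.71 in vehicle 3, and vehicle 3 was the highest array in 3 of 3. Psmb8, a catalytic subunit of the immunoproteasome, measured 2.14, 1.45 and 2.67 in the vehicle arrays and 2.29, 2.61 and 2.36 in the imiquimod arrays. Vehicle 3 and imiquimod 2 differed by only 0.06, so the top of this gene was shared. Psmb9, another such subunit, had a lead of 0.71, and Tap1, a subunit of the peptide transporter into the endoplasmic reticulum, one of 0.42. Tap1 measured -1.47, -1.48 and -1.06 in the vehicle arrays and -2.06, -1.44 and -1.60 in the imiquimod arrays, with a difference of -0.36 (SE 0.21, limma adjusted p = 0.251).

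The 4 interferon-inducible GTPases, which attack the vacuoles of intracellular pathogens, were all highest in vehicle 3. Their leads were 1.09 for Gbp2, 1.35 for Gbp3, 1.08 for Igtp and 1.36 for Irgm1. Gbp3 measured 0.02, -0.45 and 1.13 in the vehicle arrays and 0.29, 0.53 and 0.56 in the imiquimod arrays. All imiquimod arrays of Gbp3 exceeded vehicle 1 and 2, and none reached vehicle 3. Igtp measured 1.37, 0.80 and 2.16 in the vehicle arrays and 1.26, 1.44 and 1.34 in the imiquimod arrays, where vehicle 1 fell among the imiquimod arrays. Their treatment differences lay between -0.26 for Gbp2 and 0.23 for Irgm1 (limma adjusted p = 0.619 and 0.715).

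Of the remaining members, Usp18, which removes Isg15 from proteins and damps receptor signalling, had the lowest treatment difference of all. It measured -1.29, -2.21 and -0.08 in the vehicle arrays and -2.23, -2.27 and -1.71 in the imiquimod arrays, a difference of -0.88 (SE 0.53, limma adjusted p = 0.273). Here vehicle 1 as well as vehicle 3 exceeded all imiquimod arrays, and vehicle 2 did not. Ifi44, a cytoplasmic antiviral protein, and Xaf1, a promoter of apoptosis, had leads of 2.05 and 1.45 in vehicle 3. Parp14, an ADP-ribosyltransferase, and Ifi35 had leads of 0.79 and 0.71, and for both the imiquimod arrays lay above vehicle 1 and 2 and close under vehicle 3.

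Over the 37 tested members, 17 treatment differences were above 0 and 20 below, with a median of -0.01 against 0.01 over all genes. They ran from -0.88 to 0.82, so that no member differed by as much as 1. Within slide 1, where imiquimod 1 stands alone against the vehicle arrays, the median was -0.18, and no member passed with slide as a block. Imiquimod arrays lay above all vehicle arrays in 2 members (25.4% of all genes) and below them in 0 (21.1%). The median SE of the difference was 0.40 over the members and 0.17 over all genes. The vehicle SD was larger than the imiquimod SD in 35 of 37 members, against 69.5% of all genes. Its median was 0.81 against 0.21 for imiquimod, and over all genes these values were 0.23 and 0.15. The members' differences were thus measured with less precision than those of most genes on these arrays.

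Vehicle 3 was above the mean of vehicle 1 and 2 in 36 of 37 members (56.4% of all genes), and by at least 1 in 23 (5.05%). Irf1 was the exception. The lead was not uniform, falling from 2.92 in Oas3 to under 0.50 in Stat2, Tap1 and Cxcl9. Vehicle 2 was the lowest array in 29 members, against 22.8% of all genes. The summed linear signal of the 37 members, in units of the array's 75th percentile, was 40.8, 29.5 and 78.1 in vehicle 1, 2 and 3 and 42.3, 46.0 and 44.7 in imiquimod 1, 2 and 3. Thus the imiquimod arrays lay near vehicle 1, and the vehicle arrays extended to both sides. Of 11 members with several tested probes, the sign of the lead was the same on all probes in 11. Of the 52 tested probes of the members, 44 were highest in vehicle 3, and none passed between treatments in limma.

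Without vehicle 3, 3 members were called, all higher with imiquimod (limma), against 13.9% of all genes called higher and 11.4% lower. They were Cxcl10 (1.00, adjusted p = 0.0347 in limma, range over its alternatives 0.0347 to 0.169), Rsad2 (1.17, adjusted p = 0.00828, range 0.00828 to 0.668) and Dhx58 (0.90, adjusted p = 0.0439, range 0.0439 to 0.922). The imiquimod arrays lay above both remaining vehicle arrays in 13 of 37 members (35.1%) and below them in 0, against 31.7% and 27.0% of all genes. The median difference was then 0.33, and 0.02 over all genes. Without vehicle 2 the median was -0.44 and 1 member was called, Stat2 (-0.73, limma adjusted p = 0.0203, range over its alternatives 0.0203 to 0.515), against 26.0% of all genes called. Vehicle 3 was the highest array in 32 of 37 members and vehicle 2 the lowest in 29. The opposite shifts of the median without these arrays follow from this order. The calls in these fits depend on it too and are no separate result.

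**Figure D3:**
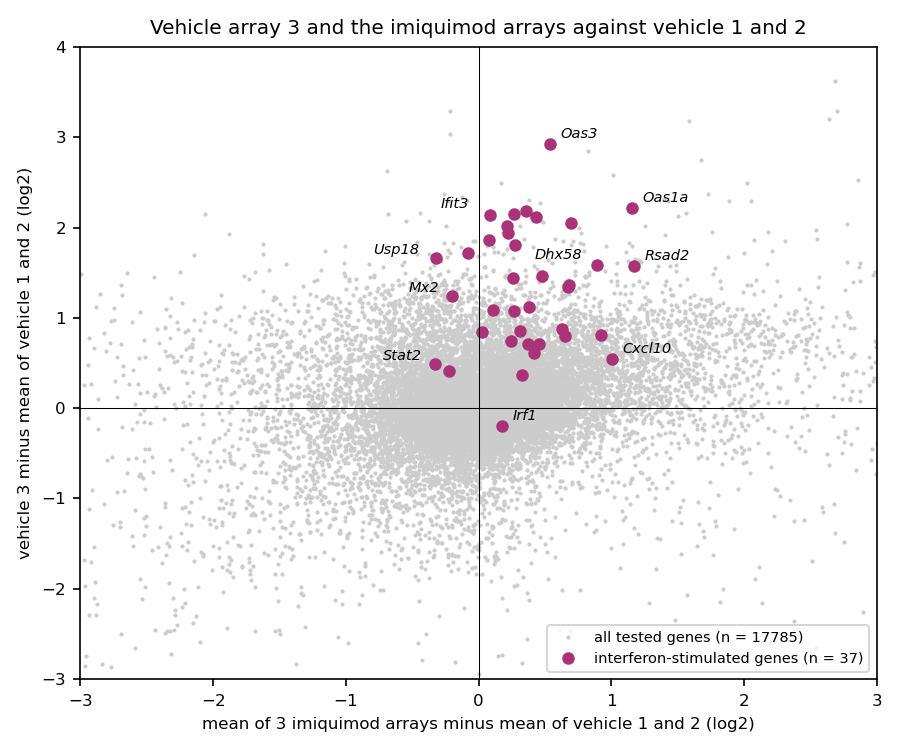
Difference of vehicle 3 from the mean of vehicle 1 and 2 (vertical axis, log2) against the difference of the mean of the 3 imiquimod arrays from the same mean (horizontal axis, log2), for the 37 tested members (purple) and all 17785 tested genes (grey, 456 of them outside the axes). The members' medians are 1.35 on the vertical and 0.33 on the horizontal axis, and both axes share the vehicle 1 and 2 values.

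Upstream of these genes, the receptors of interferon were measured well and the ligands mostly were not. Of 22 tested genes of a list of interferons, receptors and signalling proteins, 6 rose, 2 fell and 14 did not pass, beside the 23.6% called over all genes. Il10rb, a chain of the interferon lambda and interleukin 10 receptors, rose by 0.99 (SE 0.18, limma adjusted p = 0.0153). Ifnlr1, the other chain of the lambda receptor, fell by 1.14 (SE 0.16, limma adjusted p = 0.00695), and Cish, an inhibitor of cytokine signalling, fell by 1.47 (SE 0.17, limma adjusted p = 0.00470). The other genes that rose, named after their values were seen, were Ifngr2, Ptpn6, Ifnar2, Ifnar1 and Ifng.

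Of the ligands, Ifnb1, Ifna4, Ifna5, Ifne and Ifnk were not well above background on any array, and Ifna12 and Ifnl3 were so on 1 imiquimod array each. Ifng was well above background on 1 vehicle and 2 imiquimod arrays. It measured -5.26, -5.82 and -5.76 in the vehicle arrays and -5.06, -4.90 and -4.80 in the imiquimod arrays, and rose by 0.69 (SE 0.18, limma adjusted p = 0.0425). Its values are near the detection limit, and vehicle 3 was not its highest array. Ifna2, Ifna9, Ifna13 and Ifnz were tested and did not pass (differences 1.13, 0.24, -0.09 and 0.30, limma adjusted p = 0.212, 0.527, 0.731 and 0.474). The interferon alpha genes are close copies, and their probes were not checked for binding to several of them.

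A list drawn up for nucleic acid sensing and its signalling had 24 tested genes. Of these, 9 rose and 15 did not pass, beside 12.8% of all genes called higher and 10.7% lower. Ccdc88b, whose part in such sensing was not checked, rose by 1.99 (SE 0.17, limma adjusted p = 0.00229). Unc93b1, which carries Tlr7 to endosomes, rose by 2.02 (SE 0.32, limma adjusted p = 0.0101), and Irak4, a kinase of the Tlr pathway, by 1.09 (SE 0.18, limma adjusted p = 0.0109). Tlr7, the receptor of imiquimod, measured -1.07, -1.96 and -0.55 in the vehicle arrays and -0.32, 0.0011 and 0.39 in the imiquimod arrays. All imiquimod arrays exceeded all vehicle arrays, and the difference of 1.22 (SE 0.39) did not pass (limma adjusted p = 0.0688). Vehicle 3 was the highest array in 2 of these 24 genes (25.3% of all genes), and its median lead over vehicle 1 and 2 was 0.20.

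A wider list of 66 other tested interferon-induced genes had 8 that rose, 0 that fell and 58 that did not pass. The share that rose was near the 12.8% of all genes called higher, while 10.7% of all genes were called lower. Ifitm1, a membrane protein that blocks viral fusion, rose by 3.12 (SE 0.34, limma adjusted p = 0.00370). Slfn9 rose by 1.09 and Casp1, the inflammatory caspase, by 0.88 (limma adjusted p = 0.00716 and 0.00828). Vehicle 3 was the highest array in 36 of the 66 (25.3% of all genes), and its median lead over vehicle 1 and 2 was 0.91. Without vehicle 3, 25 genes of this list passed in place of 8, all higher, against 13.9% of all genes called higher and 25.2% in either direction. Without vehicle 2, 12 passed, 8 higher and 4 lower, against 13.4% and 12.6% of all genes. Leaving out an array that is high in a list raises the list's differences, so the 25 are no separate result. With slide as a block in limma, 1 gene of this list passed, and 0 and 2 genes of the signalling and sensing lists did in place of 8 and 9.

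**Figure D4:**
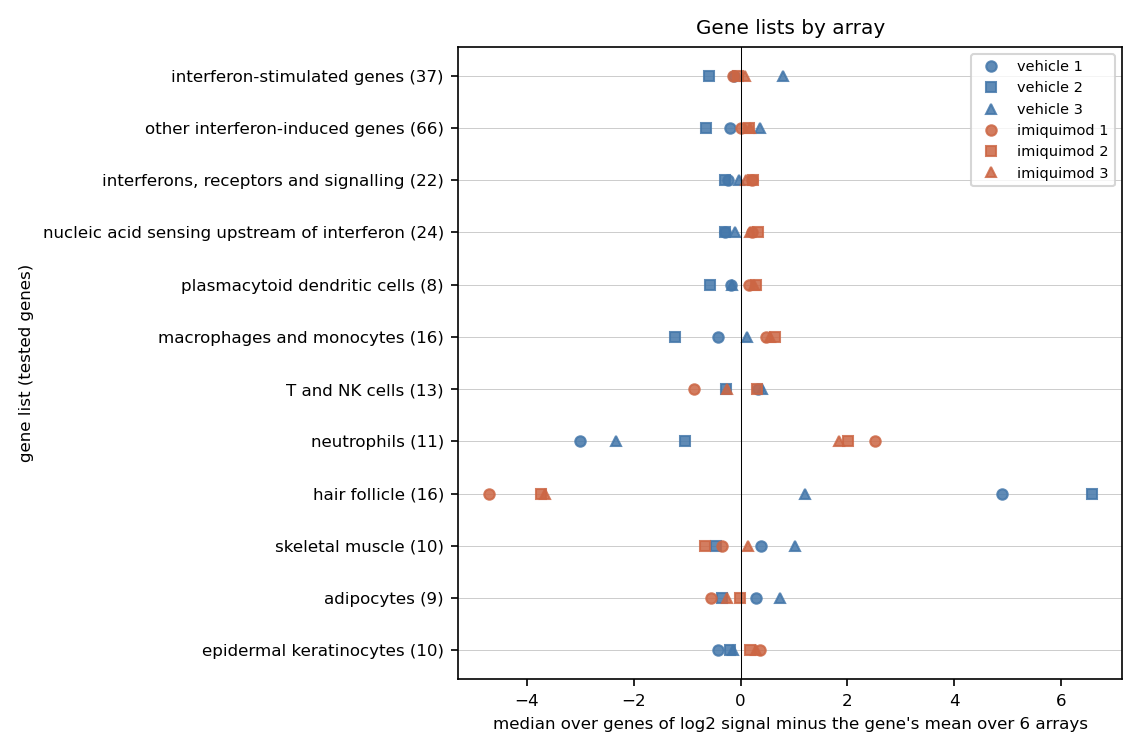
Median over the tested genes of each list (number in brackets) of the scaled log2 signal minus the gene's mean over the 6 arrays (horizontal axis), for vehicle (blue) and imiquimod (orange) arrays, with circles, squares and triangles for arrays 1, 2 and 3. For the interferon-stimulated genes vehicle 3 is at 0.79 and vehicle 2 at -0.60, with the imiquimod arrays between -0.13 and 0.09. The hair follicle and neutrophil lists separate the treatments most widely. In the signalling, sensing, plasmacytoid dendritic cell, macrophage and keratinocyte lists all imiquimod arrays also lie above all vehicle arrays, by less.

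The vehicle arrays also differed in markers of cell types. The summed signal of 16 hair follicle genes, Tchh and Krt27 among them, was 851, 1769 and 125 in vehicle 1, 2 and 3 and 11.0 to 14.9 in the imiquimod arrays. Vehicle 2, the lowest array for most members, was thus the highest for hair genes, and vehicle 3 the lowest of its group. Skeletal muscle genes such as Tnni2 and Myh4 summed to 865, 540 and 1335 in the vehicle arrays and to 429 to 731 in the imiquimod arrays, with 8 of 10 highest in vehicle 3 (25.3% of all genes). Adipocyte genes such as Cfd and Fabp4 summed to 425, 271 and 574 in the vehicle arrays and to 236 to 322 in the imiquimod arrays, with 8 of 9 highest in vehicle 3. The sums of the muscle and adipocyte lists kept the order of the members' sum over the vehicle arrays. Their median leads of vehicle 3 were 1.03 and 0.77. Not every gene kept that order, and Myh4 measured 7.21, 6.33 and 6.78 in the vehicle arrays. The part of the hair, muscle and adipocyte lists in the members' lead was not tested.

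Markers of leukocytes were compared next. Macrophage and monocyte genes, led by Lyz2 and Ly6c2, summed to 268, 152 and 381 in the vehicle arrays. In the imiquimod arrays their sums were 456 to 534. Of 16, 4 were highest in vehicle 3, about the 25.3% of all genes, and 7 rose, beside 12.8% of all genes. Their median lead of vehicle 3 was 0.98, against 0.06 over all genes. Within the vehicle group the order of the macrophage sums was that of the members. Fibroblast, endothelial and dendritic cell genes, and the plasmacytoid list below, also had this order by their sums. Of the vehicle arrays, all were lowest in vehicle 2 and highest in vehicle 3. All 11 tested neutrophil genes rose, and S100a9 and S100a8, which lead that list and are also made by inflamed keratinocytes, brought its sum from 4.37 to 43.1 in the vehicle arrays to 740 to 850 in the imiquimod arrays. Genes of plasmacytoid dendritic cells, the main producers of type I interferon, had 1 of 8 highest in vehicle 3, against 25.3% of all genes. They summed to 167, 138 and 241 in the vehicle arrays and to 248 to 290 in the imiquimod arrays. Of the 8, 4 rose and 1 fell in limma, beside 12.8% and 10.7% of all genes. Named after their values were seen, Spib (2.05), Irf8 (1.01), Ly6d (0.98) and Ccr9 (0.84) rose, and Upb1 fell (-3.73). The leading genes of that list, Ly6d and Cox6a2, are also made by keratinocytes and muscle, and Siglech, its defining receptor (named after its values were seen), was not well above background on any array. T and NK cell genes, led by Nkg7 and Cd3d, summed to 3.58 to 4.28 in the vehicle arrays and 1.69 to 3.18 in the imiquimod arrays. Single genes of that list did not follow its sum: of 13 tested, 3 rose and 1 fell in limma, and those that rose, named after their values were seen, were Gzma (4.60), Gzmb (1.68) and Cd8b1 (1.07). The part of these cells in the members' values was not tested. The extraction software's net signal of the negative control spots was 45.2 on vehicle 3 and 40.9 on vehicle 2, against 31.7 to 37.6 on the other arrays.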

How the data were processed

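RNA of 6 whole-skin samples was measured on single-colour arrays with 60-base probes. The deposited scanner files hold processed signal intensity per spot, background-subtracted by Agilent Feature Extraction (version 10.7.3.1 per the file headers, 9.1 per the submitters' processing notes), and the deposited value table holds log2 values whose normalization is not given in the sources used here; its column medians are all 7.05 and it served as an alternative. Probe positions are on the mouse build mm9, per the file headers.

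Control spots and 322 spots marked as outliers were left out. The log2 intensity minus the array's 75th percentile was averaged per probe. A probe was tested if well above background on at least 3 of 6 arrays, and a gene took its tested probe of highest mean. Probes were named through RefSeq tables by accession (27593), symbol (5574) or synonym (470), and 7420 kept the name on the array. The 2 groups were set against each other in R 4.3.3 by limma 3.58.1 (eBayes after lmFit without covariates, two-sided), with Benjamini-Hochberg adjustment over 17785 genes at 0.05, a step that was tested on simulated data. Where a lead of vehicle 3 is given, it is its value minus the mean of vehicle 1 and 2. Only the ranking of genes at the end uses its excess over the highest other array.

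The members and lists were chosen with earlier results of these data known. All members could be named; of each pathway list the 3 genes of smallest p, and Tlr7, Ifng and the interferon ligands (1 further gene is not reported here); of each cell type list the 2 of highest mean signal. Alternatives were normexp correction (offset 50), quantile and median scaling, the value table, other filters on dim probes, the mean of a gene's probes, variance trend, slide and replicate as blocks, and leaving out each array. Replicate numbers did not pair the samples.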

Additional observations from a re-analysis of the deposited data

How the results depend on the processing

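Over all genes 4190 were called, against 1076 with slide as a block and 2203 with the replicate block, and 1664 to 4629 when each array was left out. No member was called with either block, while normexp correction and median scaling each called 1, Cxcl10 (limma adjusted p = 0.0463 and 0.0390), and leaving out arrays gave 0 to 3. The slide term rests on imiquimod 1 alone against the vehicle arrays, since the other slide held only imiquimod. In the interferon, receptor and signalling list 8 genes were called, against 0 with slide as a block, 3 with the replicate block and 2 to 9 when each array was left out. The same counts were 9, 2, 5 and 4 to 11 for the sensing list, which had 14 with median scaling, and 8, 1, 7 and 5 to 25 for the other interferon-induced genes. Same-numbered samples deviated together at correlations of -0.088, 0.068 and 0.086 over 17785 genes, so the pairing is only of numbers. The median difference of the members ran from -0.44 to 0.33 over all settings and was -0.18 with slide as a block or within slide 1. Median scaling moved the median of all genes to 0.12. The lead of vehicle 3 (alternatives chosen after seeing the data) kept medians of 1.04 to 1.36 and 30 to 33 members highest in it.

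Differences of many members changed sign with the setting, and none of the members concerned was called there. Signs changed most often without vehicle 3 (15 members) and without vehicle 2 (8 members). With slide as a block these were Ifit2 (-0.22), Mx1 (0.53), Oas2 (0.021), Irf9 (0.075), Ifi44 (-0.42) and Psmb9 (-0.067). When probes of a gene were averaged they were Ifit2 (-0.093), Irf9 (0.0086) and Ddx58 (-0.020). With median scaling they were Oas2 (0.091), Irf9 (0.10) and Igtp (0.0069), and Oas2 also changed with quantile normalization (0.011) and the value table (0.0095). When each array was left out, the differences of Isg15 ran from -0.97 to 0.077, Ifit1 from -0.86 to 0.22, Ifit2 from -0.27 to 0.38, Ifit3 from -1.15 to 0.089, Mx1 from -0.84 to 0.43, Oas1a from -0.23 to 1.16, Oas2 from -0.47 to 0.48 and Oas3 from -1.06 to 0.54. Those of Oasl1 ran from -0.85 to 0.36, Oasl2 from -0.81 to 0.27, Irf9 from -0.26 to 0.25, Cxcl9 from -0.030 to 0.37, Ifi44 from -0.51 to 0.69, Ddx58 from -0.21 to 0.31, Ifih1 from -0.49 to 0.028 and Dhx58 from -0.058 to 0.90. Those of Bst2 ran from -1.01 to 0.21, Zbp1 from -1.03 to 0.27, Psmb9 from -0.13 to 0.37, Gbp2 from -0.56 to 0.11, Gbp3 from -0.12 to 0.67, Igtp from -0.42 to 0.26, Irgm1 from -0.12 to 0.68 and Xaf1 from -0.54 to 0.26. The upper or lower end was mostly the fit without vehicle 3 or vehicle 2, and the cause was not tested. Apart from Dhx58, called without vehicle 3, none of these members passed without an array. Genes at the background, such as Cxcl11 and most interferon ligands, could not be compared at this signal.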

Other observations

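Genes were ranked by how far vehicle 3 exceeded the highest of the other 5 arrays, a ranking chosen after the values were seen. The first 50 led by 1.22 to 2.25 on the log2 scale, and 9 of them were interferon-stimulated genes of the list: Oas3, Oasl1, Isg15, Zbp1, Ifit3, Irf7, Bst2, Ifit1 and Oasl2. Over all tested genes, 37 of 17785 are members. Another 2 were on the list of other interferon-induced genes, Ifit3b and Apol9b, in which vehicle 3 exceeded the highest other array by 1.80 and 1.66. Genes on neither list also ranked there. Apol9a and Ifi206, named like listed interferon-induced genes, led by 1.87 and 1.49, so the lists do not hold every gene of these families. Mug1, which encodes a protease inhibitor of the plasma, led by 2.20, and Slc13a1, a sulfate transporter, by 1.90. Myog, a muscle transcription factor, led by 1.57, and Mybpc1, a muscle myosin-binding protein, by 1.49. Ccl17, a chemokine that attracts T cells to skin, led by 1.25. No gene had a replicate of this array, and the ranking carries no test.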
